A study of Mus musculus with 6 samples.

Results

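The genes described here are those of the bone and cartilage lineages, namely Runx2, Sp7, Alpl, Ibsp, Bglap, Spp1, Sox9, Acan, Comp and Sost. They were chosen by gene symbol, and 7 of the 10 had values among the 17924 genes measured. Ibsp, Bglap and Sost were left out by this rule and are not analysed here. RNA-seq was performed on mouse dermal fibroblasts that had been isolated from dorsal skin at birth and kept in adipocyte differentiation medium for 14 days. The 3 CTL libraries came from Pdgfra-Cre+ mice with Nelfb fl/wt or wt/wt alleles, and the 3 Nelfb-/- libraries from Nelfb fl/fl Pdgfra-Cre+ mice, all on a C57BL/6J background. All 6 libraries therefore carried Pdgfra-Cre, which drives recombination in Pdgfra-expressing cells and their descendants, and the labels do not say which CTL libraries were heterozygous. Nelfb encodes a subunit of the negative elongation factor, which holds RNA polymerase II in a paused state shortly after initiation. The comparison asks how the loss of Nelfb changes the expression of bone and cartilage genes in cells exposed to an adipogenic medium.

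Adipocytes, osteoblasts and chondrocytes all arise from mesenchymal progenitors. Runx2 is the transcription factor that commits progenitors to the osteoblast lineage, and Sp7 (osterix) acts downstream of it. Osteoblasts then produce the mineralization enzyme Alpl and matrix proteins such as Spp1. Sox9 is the corresponding transcription factor of the cartilage lineage, where it works with Sox5 and Sox6 to drive matrix genes such as Acan.

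Promoter sequences of 250 bases before the start site are shown for Spp1 and Acan, the members that passed the test, and for Alpl, a product of osteoblasts that did not. Those of Runx2, Sp7, Sox9 and Comp are not shown. They are RefSeq sequences of GRCm38.p6, 5′ to 3′ on the strand of the gene. The motifs searched on both strands were a RUNX core (ACCACA or TGTGGT), a GC box (GGGCGG or CCGCCC, bound by factors of the Sp family) and a SOX core (AACAAT or ATTGTT), and capitals mark every match, including overlapping ones.
Spp1, chr5:104434861-104435110, plus strand: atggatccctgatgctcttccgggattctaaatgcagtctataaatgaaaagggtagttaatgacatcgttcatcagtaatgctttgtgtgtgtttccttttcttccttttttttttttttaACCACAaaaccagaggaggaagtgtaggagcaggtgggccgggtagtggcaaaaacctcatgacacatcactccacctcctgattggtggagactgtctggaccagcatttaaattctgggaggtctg
Acan, chr7:79052976-79053225, plus strand: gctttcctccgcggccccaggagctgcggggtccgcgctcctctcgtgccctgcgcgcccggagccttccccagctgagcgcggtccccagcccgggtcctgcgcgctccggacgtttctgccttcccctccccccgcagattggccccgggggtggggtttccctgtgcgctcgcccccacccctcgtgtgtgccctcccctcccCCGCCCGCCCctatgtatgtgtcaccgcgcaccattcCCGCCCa
Alpl, chr4:137796385-137796634, minus strand: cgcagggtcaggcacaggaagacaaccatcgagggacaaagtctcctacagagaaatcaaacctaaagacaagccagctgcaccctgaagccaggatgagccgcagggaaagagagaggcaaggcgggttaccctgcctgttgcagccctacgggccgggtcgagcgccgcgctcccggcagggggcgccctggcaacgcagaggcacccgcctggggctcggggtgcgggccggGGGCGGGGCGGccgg
The Spp1 promoter shown held 1 RUNX core, which began 128 bases before the start site. The Acan promoter held 3 GC boxes, which began 44, 40 and 7 bases before the start site, so that the first 2 overlap. That of Alpl held 2 that overlap. None of these 3 promoters held a SOX core. Spp1 and Alpl each have another listed start site, which lies within the gene. The 250 bases before it held none of these motifs in either gene and are not shown. Among all 32851 promoters of the same length, 14.0% held a RUNX core, 32.7% a GC box and 9.42% a SOX core, so that the matches are a description of the sequence only.

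The values are in CPM (reads of a gene scaled to the same total in every library), and the depth read from them lay between 17.2 M and 29.4 M reads per library, so that 3 reads were worth 0.102 to 0.175 CPM. Nelfb itself was 17.3, 19.6 and 22.3 CPM in CTL, against 5.50, 3.90 and 5.55 CPM in the Nelfb-/- libraries (log2 fold change -1.99, SE 0.215, adjusted p = 0.0050). A gene was called upregulated or downregulated when limma gave a Benjamini-Hochberg adjusted p of at most 0.05, over the 16252 genes tested, and a change of at least 2-fold. With these limits 11.2% of all genes were called, 7.58% as higher and 3.64% as lower in Nelfb-/- cells. The markers of adipocytes, the cell type given in the labels, were all present, and their summed level was 17487 to 27402 CPM in CTL and 8414 to 18023 CPM in Nelfb-/- cells. Most of this sum came from Fabp4, which was not called, and of the 10 markers Retn was downregulated (log2 fold change -2.12, adjusted p = 0.013 by limma) and Lep upregulated (5.26, adjusted p = 0.014). In all 8 of the 10 had a negative fold change, and 5 were lower and 1 higher at an unadjusted p under 0.05, against 12.9% and 19.6% of all genes. These 3 were named after their values were seen, and leaving out CTL 2, Nelfb-/- 2 or Nelfb-/- 3 (group and replicate) ended both calls, as leaving out CTL 1 did that of Retn, while 3 markers were called lower without CTL 3. In bulk RNA, fewer cells of a type and less RNA per cell cannot be told apart.

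Of the 7 members, the matrix genes Spp1 and Acan were upregulated in Nelfb-/- cells. None was downregulated by limma, and 0 of the 7 were lower at an unadjusted p under 0.05, while 4 were higher, against 12.9% and 19.6% of all genes. The 2 members called higher are to be read against the 7.58% of all genes called higher. Runx2, the factor at the head of the osteoblast lineage, did not pass the test and had nearly the same mean in both groups, whereas its downstream factor Sp7 had a large fold change that narrowly missed the threshold. The median log2 fold change of the members was 1.47, against 0.07 over all genes tested, and 6 of the 7 values were positive. Sp7, Spp1 and Acan were the 3 members for which every Nelfb-/- library exceeded every CTL library, as was true of 22.0% of all genes, and for 0 members every Nelfb-/- library was the lower one, as for 16.1% of all genes. The number of members called depended on single libraries, since 5 were called without CTL replicate 3, when 2480 of all genes passed the same limma threshold, and 0 without Nelfb-/- replicate 3, when 426 did.

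**Figure D1:**
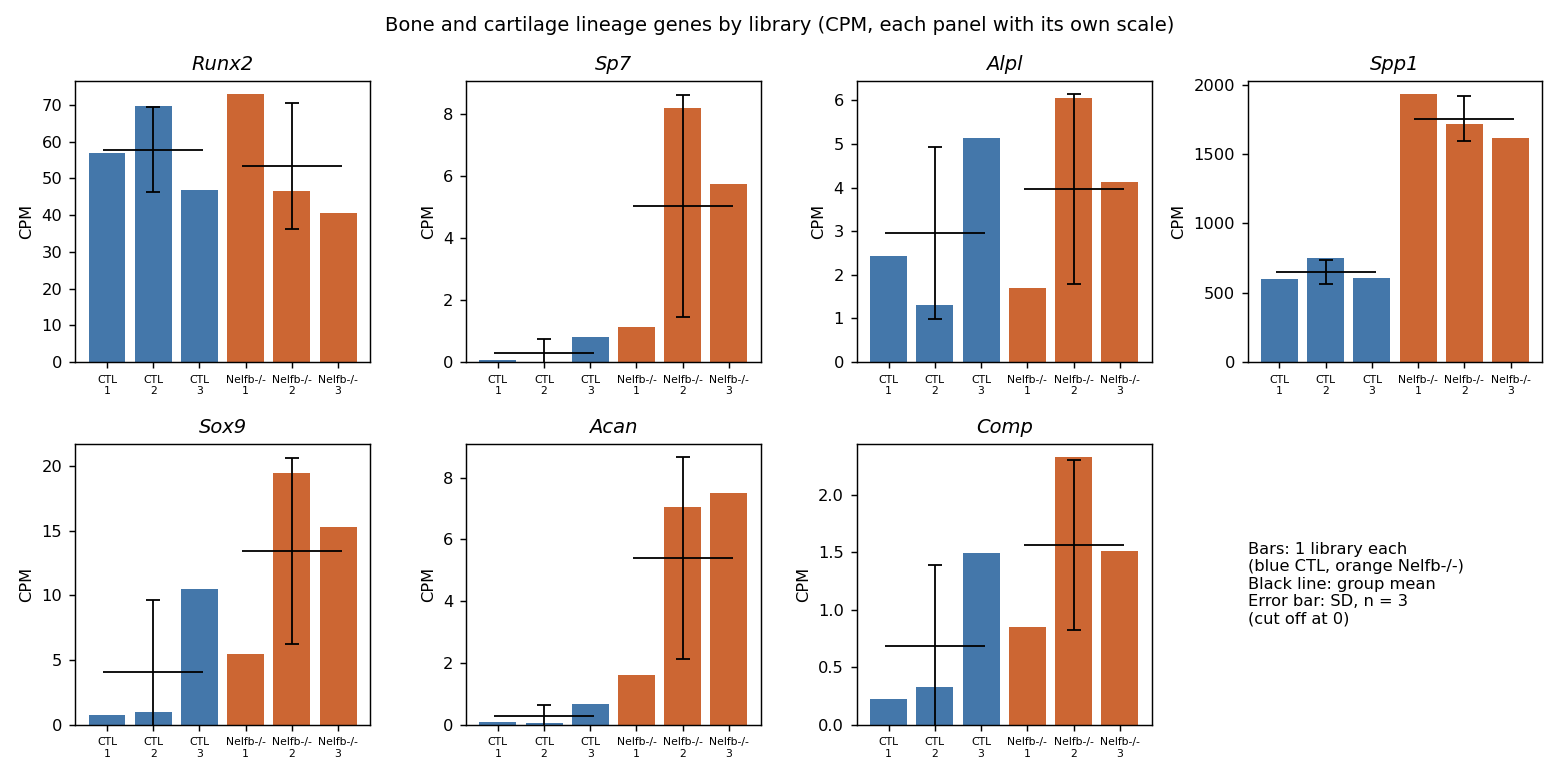
Level of each of the 7 members in CPM (linear axis from 0, own scale per gene) in each library, with 1 bar per library (CTL blue, Nelfb-/- orange), black lines for the group means and error bars for the SD (n = 3), cut off at 0. Spp1 separates the groups with little spread, whereas Sp7, Sox9, Acan, Comp and Alpl are high in CTL replicate 3 and low in Nelfb-/- replicate 1 within their groups.

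Of the transcription factors, Runx2 (ENSMUSG00000039153, chr17:44495987-44814797, mm10, minus strand) was 56.8, 69.9 and 46.8 CPM in the CTL libraries and 72.9, 46.5 and 40.6 CPM in the Nelfb-/- libraries. The groups overlapped, and the highest of the 6 libraries was a Nelfb-/- one. The log2 fold change was -0.14 (SE 0.26, adjusted p = 0.74 by limma), with a 95% interval of -0.77 to 0.48, so that a fold between 0.586 and 1.40 remained possible. Its sign turned when CTL replicate 2 (0.0021) or Nelfb-/- replicate 3 (0.030) was left out. Runx2 overlaps Supt3 on the opposite strand, which was 22.1 to 27.8 CPM in CTL and 15.0 to 17.8 CPM in Nelfb-/- cells, and whether reads were counted by strand is not given in the sources used here.

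Sp7 (ENSMUSG00000060284, chr15:102356606-102367182, minus strand), the zinc finger factor needed for osteoblasts to mature, was 0.0451, 0 and 0.816 CPM in CTL, against 1.14, 8.21 and 5.75 CPM in the Nelfb-/- libraries. These values correspond to 1, 0 and 24 reads in CTL and to 24, 141 and 141 reads in Nelfb-/- cells, and the zero allows up to 0.140 CPM at the depth of that library. The groups did not overlap in CPM, but CTL replicate 3 lay close to Nelfb-/- replicate 1. The log2 fold change of 4.67 (SE 1.25) had an adjusted p of 0.051 by limma and a 95% interval of 1.68 to 7.65. Without CTL replicate 3 the adjusted p was 0.014, and without Nelfb-/- replicate 1 it was 0.041, but it was 0.149 to 0.169 with any of the other 4 libraries left out. With all 6 libraries, the adjusted p by limma was 0.0497 with a looser filter or none and 0.044 with a pseudocount of 5 reads, where the log2 fold change was 3.37, but 0.061 after quantile normalization and 0.151 without moderation of the variances.

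Sox9 (ENSMUSG00000000567, chr11:112782224-112787760, plus strand) was 0.722, 0.980 and 10.5 CPM in CTL, against 5.45, 19.5 and 15.3 CPM in the Nelfb-/- libraries. CTL replicate 3 exceeded Nelfb-/- replicate 1, so that the groups overlapped. The log2 fold change was 2.55 (SE 1.05, adjusted p = 0.15 by limma), and it was 3.74 with an adjusted p of 0.013 when CTL replicate 3 was left out. With any of the other 5 left out, the adjusted p by limma was 0.117 to 0.366, and the log2 fold change was lowest without CTL replicate 1, at 1.85.

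Among the products of osteoblasts, Spp1 (osteopontin, ENSMUSG00000029304, chr5:104435118-104441050, plus strand), a secreted phosphoprotein of bone matrix that macrophages also produce, was 596, 749 and 603 CPM in CTL, against 1929, 1719 and 1612 CPM in the Nelfb-/- libraries. Each Nelfb-/- library was more than 2-fold above each CTL library. The mean rose from 649 ± 86.6 to 1753 ± 161 CPM (SD, n = 3; log2 fold change 1.44, SE 0.21, adjusted p = 0.0092 by limma, 95% interval 0.95 to 1.93). This value lay between 1.37 and 1.54 with any library left out, although the adjusted p was 0.053 without Nelfb-/- replicate 3.

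Alpl (ENSMUSG00000028766, chr4:137741733-137796384, minus strand), the alkaline phosphatase that releases phosphate for mineral, was 2.44, 1.31 and 5.13 CPM in CTL, against 1.71, 6.05 and 4.12 CPM in the Nelfb-/- libraries. The groups overlapped, with the lowest library in CTL and the highest in the Nelfb-/- group. The log2 fold change was 0.45 (SE 0.64, adjusted p = 0.66 by limma, 95% interval -1.08 to 1.98), and it was -0.016 without CTL replicate 2.

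Of the cartilage matrix genes, Acan (aggrecan, ENSMUSG00000030607, chr7:79053483-79115099, plus strand), the large proteoglycan that holds water in cartilage, was 0.0902, 0.0467 and 0.680 CPM in CTL, against 1.61, 7.04 and 7.51 CPM in the Nelfb-/- libraries. These correspond to 2, 1 and 20 reads in CTL and to 34, 121 and 184 reads in Nelfb-/- cells, so that the CTL level rests largely on replicate 3. The groups did not overlap, and the log2 fold change was 4.43 (SE 0.95, adjusted p = 0.028 by limma, 95% interval 2.14 to 6.71). The direction was kept with any library left out (3.83 to 5.33), but the adjusted p was 0.095 without CTL replicate 1, 0.091 without CTL replicate 2, 0.092 without Nelfb-/- replicate 2 and 0.112 without Nelfb-/- replicate 3. It was 0.10 without moderation of the variances, and the log2 fold change was 3.46 with a pseudocount of 5 reads and 3.82 after quantile normalization, both of which kept the call.

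Comp (ENSMUSG00000031849, chr8:70373558-70382066, plus strand), a matrix protein of cartilage and tendon, was 0.225, 0.327 and 1.496 CPM in CTL, against 0.853, 2.33 and 1.51 CPM in the Nelfb-/- libraries. CTL replicate 3 lay level with Nelfb-/- replicate 3 and above Nelfb-/- replicate 1. The log2 fold change was 1.47 (SE 0.74, adjusted p = 0.22 by limma), and without CTL replicate 3 it was 2.23 with an adjusted p of 0.037. With any of the other 5 left out, the adjusted p by limma was 0.165 to 0.501, and the log2 fold change was lowest without CTL replicate 1, at 0.98.

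**Figure D2:**
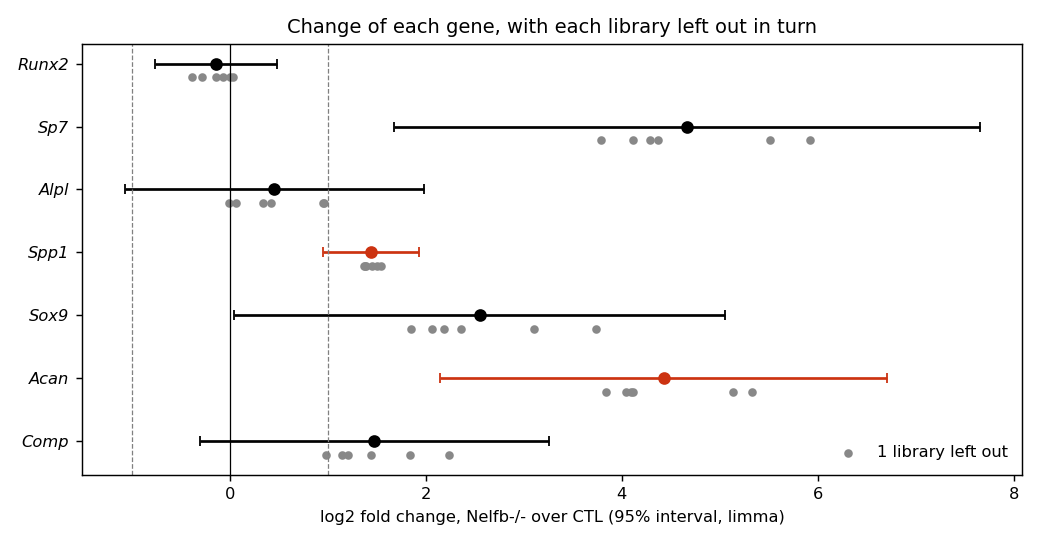
Log2 fold change of Nelfb-/- over CTL for each member, with the 95% interval of the limma fit and grey points for the values with 1 library left out. Red marks genes that passed the threshold, dashed lines mark 2-fold, and of these 7 genes Spp1 has the narrowest interval (0.95 to 1.93).

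Sp7, Alpl, Sox9, Acan and Comp shared an order of libraries that the genotype does not define. In these 5 of the 7 members, CTL replicate 3 was the highest CTL library and Nelfb-/- replicate 1 the lowest Nelfb-/- library, an order shown by 32.5% of all genes (47.9% for the first condition alone and 44.9% for the second). This order was noticed after the values were seen. The summed level of 6 fibroblast markers had the same order, with 1754, 1565 and 4426 CPM in CTL, against 3171, 12096 and 12458 CPM in the Nelfb-/- libraries, and although none of these markers was called by limma, 4 of the 6 were higher in Nelfb-/- cells at an unadjusted p under 0.05, against 19.6% of all genes. Without CTL replicate 3, 4 of them were called, and without Nelfb-/- replicate 1, 2 were. Much of the fibroblast sum was Col3a1, at 682, 571 and 2979 CPM in CTL, against 1789, 10132 and 10315 CPM in the Nelfb-/- libraries. Within CTL, Dcn had another order, with 467, 501 and 310 CPM, so that replicate 3 was lowest. The summed level of the adipocyte markers was 27402, 25732 and 17487 CPM in CTL, against 8414, 18023 and 14316 CPM in the Nelfb-/- libraries, so that CTL replicate 3 and Nelfb-/- replicate 1 were each the lowest of their group. The part of these differences between libraries in the members' values was not tested.

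**Figure D3:**
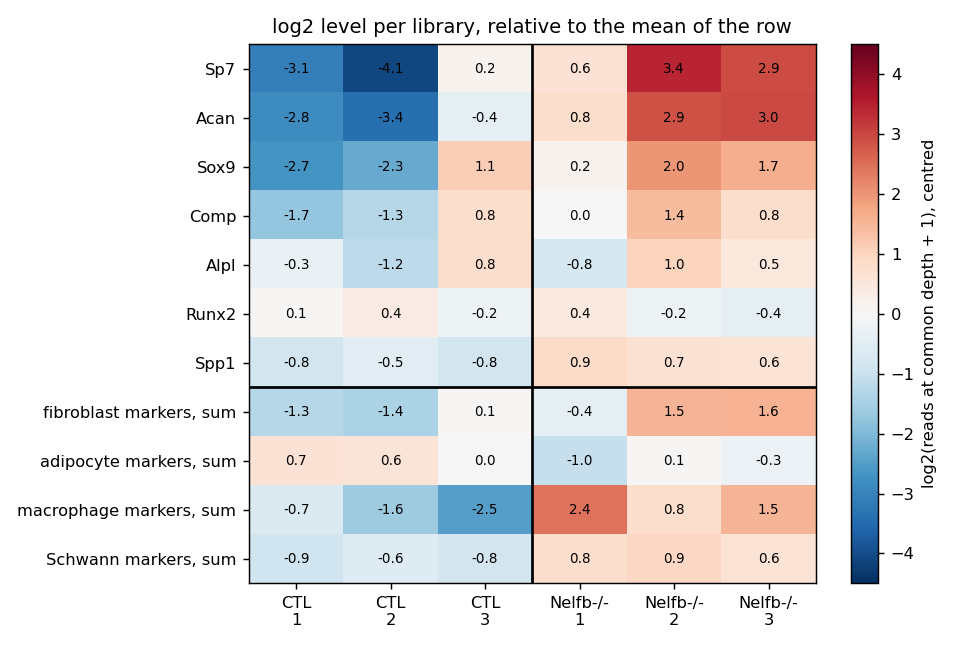
Log2 level of each member and summed marker list in each library, relative to its own mean over the 6 libraries. Sp7, Alpl, Sox9, Acan, Comp and the sum of the fibroblast markers are high in CTL replicate 3 and low in Nelfb-/- replicate 1 within their groups, whereas Spp1 follows the genotype.

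Markers of other cell types that express some of the members also differed between the groups. Of 14 macrophage markers, 13 were upregulated in Nelfb-/- cells, the exception being Cd68, and their summed level was 252 to 894 CPM in CTL and 2436 to 7650 CPM in Nelfb-/- cells. Per library the sum was 894, 472 and 252 CPM in CTL, against 7650, 2436 and 4118 CPM in the Nelfb-/- libraries. Both the sum and Spp1 were highest in Nelfb-/- replicate 1. Within CTL the sum was highest in replicate 1 and Spp1 in replicate 2 (596, 749 and 603 CPM). The count of 13 was 3 without CTL replicate 2 and 2 without Nelfb-/- replicate 3, and 11 or 12 with any other library left out. Of 6 osteoclast markers tested, Tnfrsf11a was called (16.7%, against 11.2% of all genes). The count was 0 without CTL 1, CTL 2 or Nelfb-/- 3, and 2 (Mmp9 and Tnfrsf11a) without CTL 3 or Nelfb-/- 1. With all 6 libraries Mmp9 was not tested, and it was at or under 3 reads in every CTL library. Of the 6 tested, 4 had a positive and 2 a negative log2 fold change, Acp5 (-0.24) and Ocstamp (-1.20), and neither of these was called. The sums were 81.2 to 111 CPM in CTL and 124 to 140 CPM in Nelfb-/- cells. Their largest part was Ctsk (means of 58.1 and 75.2 CPM), which was not called. Of 7 Schwann cell markers, 5 were upregulated, also with any library left out, and 1 (Mbp) was downregulated, a call kept only without CTL 3 or Nelfb-/- 1, with sums of 62.7 to 76.6 and 177 to 221 CPM, and of 6 melanocyte markers 5 were upregulated (3 without Nelfb-/- 2 or Nelfb-/- 3), with sums of 48.6 to 73.7 and 51.9 to 168 CPM. Most of the CTL sum was Mitf, which was not called with all 6 libraries. Without Nelfb-/- 1 it was called lower (log2 fold change -1.31, adjusted p = 0.021 by limma). With Mitf taken out, the sums were 1.22 to 1.43 and 30.3 to 72.1 CPM. Tyr, Tyrp1 and Mlana were at or under 3 reads in every CTL library. Both lineages can express Sox9, and all 5 skeletal muscle markers tested were also upregulated, with sums of 7.47 to 9.72 and 46.1 to 72.7 CPM. Leaving out CTL 2 or any Nelfb-/- library ended the call of Myog, so that 4 remained. Myod1 and Ckm, which were not tested, were at or under 3 reads in every CTL library. Of 6 keratinocyte and hair follicle markers 2 were upregulated (1.90 to 2.71 and 6.35 to 19.2 CPM), and of 5 endothelial markers 1 was (6.97 to 10.6 and 7.92 to 22.1 CPM), against 7.58% of all genes. Each of CTL 2, Nelfb-/- 2 and Nelfb-/- 3 brought both counts to 0 when left out, as did CTL 1 the first and Nelfb-/- 1 the second, while the first was 1 without CTL 3 and 4 without Nelfb-/- 1 and the second 2 without CTL 3. The part of these cells in the values of Spp1, Sox9 and the other members was not tested.

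Levels can be compared between genes only per length, and per kilobase of exon Spp1 stood far above the other members. Its level was 394 CPM per kb in CTL and 1064 CPM per kb in Nelfb-/- cells, above 99.3% and 99.8% of the 15924 genes ranked. Runx2 followed at 6.54 and 6.04 CPM per kb, near the middle of all genes. Sox9 was 0.981 and 3.24 CPM per kb, and Alpl 0.734 and 0.982 CPM per kb. Comp was 0.230 and 0.527 CPM per kb, Sp7 0.0845 and 1.48 CPM per kb, and Acan 0.0365 and 0.721 CPM per kb. In CTL cells Sp7 and Acan were thus the lowest members, above 2.55% and 0.936% of genes, and in both groups the ranges of neighbours in the order of levels overlapped from Sox9 downwards, whereas in CTL that of Sox9 lay below that of Runx2.

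Other genes of these lineages were taken from 4 lists, of which 57 genes were tested. Of these, 10 were upregulated and 3 downregulated (22.8%, against 11.2% of all genes), and 39 had a positive and 18 a negative fold change, with a median of 0.74.

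Of 22 osteoblast genes tested, 2 were upregulated and none downregulated by limma (1 was lower and 5 were higher at an unadjusted p under 0.05, the latter 22.7% against 19.6% of all genes). This share of 9.09% is close to that of all genes (11.2%), and the median log2 fold change was 0.55. Runx1, a RUNX factor best known from blood cell development, was 20.6, 21.7 and 19.6 CPM in CTL, against 60.6, 78.8 and 80.5 CPM in the Nelfb-/- libraries (log2 fold change 1.81, SE 0.155, adjusted p = 0.0035 by limma). Unlike Runx2, it separated the groups in every library, and it was called with any library left out. Cbfb, the partner through which RUNX factors bind DNA, had a log2 fold change of 0.89 (SE 0.14, adjusted p = 0.012 by limma), under the 2-fold limit. Vdr, the receptor for vitamin D, rose from 12.5 ± 8.08 to 65.3 ± 28.2 CPM (SD, n = 3), and leaving out any of CTL 1, CTL 2, Nelfb-/- 2 and Nelfb-/- 3 (group and replicate) ended the call. Bglap2 and Bglap3, close copies of Bglap, are not analysed here.

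Of 8 osteocyte and mineralization genes tested, 1 was upregulated and 1 downregulated, against 7.58% and 3.64% of all genes. Enpp1, which makes the mineralization inhibitor pyrophosphate, was 3.25, 5.27 and 3.60 CPM in CTL, against 23.9, 16.4 and 20.6 CPM in the Nelfb-/- libraries (log2 fold change 2.33, SE 0.26, adjusted p = 0.0053 by limma). Phospho1, a phosphatase that starts mineral formation and is also abundant in fat, was 274, 405 and 185 CPM in CTL, against 69.0, 25.8 and 18.8 CPM in the Nelfb-/- libraries (log2 fold change -3.08, SE 0.52, adjusted p = 0.014). Leaving out any of CTL 1, CTL 2, Nelfb-/- 2 and Nelfb-/- 3 ended the call of Phospho1. Dmp1, an osteocyte gene, is not analysed here.

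Of 22 cartilage genes tested, 5 were upregulated and 2 downregulated (31.8%, against 11.2% of all genes), and the median log2 fold change was 0.83. The Sox9 partners moved in opposite directions. Sox5 was 16.6, 13.9 and 12.5 CPM in CTL, against 5.97, 3.73 and 4.37 CPM in the Nelfb-/- libraries (log2 fold change -1.62, SE 0.24, adjusted p = 0.010 by limma). Sox6 was 6.63, 6.67 and 4.59 CPM in CTL, against 15.4, 15.9 and 13.1 CPM in the Nelfb-/- libraries (log2 fold change 1.32, SE 0.22, adjusted p = 0.013). The call of Sox5 was lost without Nelfb-/- replicate 3, and that of Sox6 without Nelfb-/- replicate 2 or 3.

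Of the other cartilage genes called, 4 were upregulated and 1 was downregulated. Adamts5, the main protease that cuts aggrecan, was 146, 130 and 180 CPM in CTL, against 488, 543 and 529 CPM in the Nelfb-/- libraries (log2 fold change 1.79, SE 0.17, adjusted p = 0.0040 by limma). Adamts4, a second aggrecanase, rose from 11.2 ± 3.30 to 33.1 ± 10.5 CPM, and Hapln1, which links aggrecan to hyaluronan, from 0.156 ± 0.047 to 1.35 ± 0.634 CPM (SD, n = 3). Papss2, which makes the sulfate donor for proteoglycans, fell from 46.0 ± 5.04 to 16.6 ± 1.33 CPM. Matn4, a matrix adaptor protein, rose from 0.144 ± 0.079 to 1.01 ± 0.527 CPM. The calls of Adamts5 and Papss2 held with any library left out, whereas those of Adamts4 and Hapln1 ended when any of CTL 1, CTL 2, Nelfb-/- 2 and Nelfb-/- 3 was left out, as did that of Matn4, which was not tested without Nelfb-/- 1. Hapln1 had 4, 4 and 3 reads and Matn4 5, 3 and 2 reads in the CTL libraries, so that both CTL levels lie near the floor of 3 reads. Col2a1, the main cartilage collagen, is not analysed here.

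Of 5 tendon genes tested, 2 were upregulated, against 7.58% of all genes, and the median log2 fold change was 1.91. Tnc (tenascin C), a matrix protein of tendon and of healing tissue, was 103, 84.3 and 239 CPM in CTL, against 1439, 3195 and 3621 CPM in the Nelfb-/- libraries (log2 fold change 4.32, SE 0.51, adjusted p = 0.0057 by limma). Tnmd, a membrane protein of tendon cells, rose from 1.12 ± 0.628 to 6.30 ± 2.95 CPM (SD, n = 3), and the same 4 libraries as for Vdr each ended the call when left out. Scx, the tendon transcription factor, was 0.406, 0.420 and 0.306 CPM in CTL, against 1.47, 0.407 and 1.39 CPM in the Nelfb-/- libraries, with an adjusted p of 0.18.

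**Figure D4:**
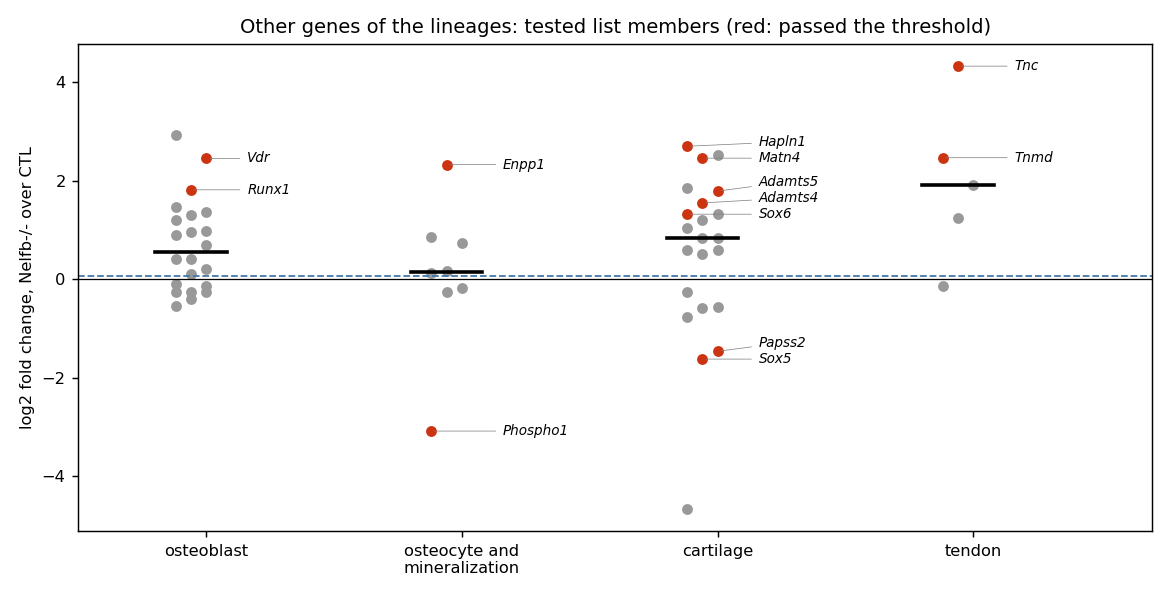
Log2 fold change of Nelfb-/- over CTL for each tested gene of the 4 lists, with the median of each list as a black bar and the median of all genes as a dashed line. The 13 genes in red passed the threshold, 10 above and 3 below 0, and Tnc lies highest at 4.32.

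The genes whose pattern over the 6 libraries was most like that of a member were sought among 12001 genes, by the root mean square difference of centred log2 values. For Runx2 they were Fbxl4 (0.061), Nudt18 (0.063) and the pseudogene Ubb-ps (0.068). For Spp1 they were Rnf19b (0.080), Tnfaip6 (0.102) and Ezr (0.102). Those nearest to Sox9 lay farther away and were Pcdh19 (0.329), Olfml3 (0.358) and Cd248 (0.375).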

How the data were processed

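RNA-seq data of 3 CTL and 3 Nelfb-/- samples, labelled as biological replicates and grouped by the genotype in the labels, were analysed from 1 table. The submitters' processing notes name STAR 2.7, Partek 9.0.20.0202 and mm10. The authors state that genes under 10 reads were excluded, and each gene listed had at least 10.0 reads in its highest library. The counting of reads is not given in the sources used here. The table deposited by the authors holds CPM with 0.0001 added to every value.

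The constant was subtracted, and the step between low values was taken as 1 read. Of the values up to 20 reads, 69.2% to 72.0% per library were whole multiples of the step within 0.02 reads, so no count-based test was run. Values were brought to reads at a common depth of 22.3 M, genes averaging under 10 reads (0.448 CPM) were dropped, and log2(value + 1) was tested with limma 3.58.1 (R 4.3.3) with an abundance trend. A fold change is a difference of means on this scale: the pseudocount draws that of low genes towards 0, and it can differ from the ratio of the mean CPM. Two-sided p-values received a Benjamini-Hochberg adjustment across the whole table. An exact permutation test of 3 against 3 cannot go below 0.1 and was not used. The test was checked on simulated data with independent noise for each gene and library, which does not cover libraries that deviate together.

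Ensembl IDs were taken from GENCODE vM21, to which 17520 genes were matched by symbol, and positions from the deposited table. The members and gene lists were chosen with earlier results of these data known. Genes named are the members, Nelfb, list genes past the threshold, a fixed set of partners and defining genes, and the 3 genes most like Runx2, Sox9 and Spp1. Markers at or under 3 reads in a group are also named. Supt3 and the other marker genes given by name, such as Cd68, Mitf and Fabp4, were added after their values were seen. Alternatives covered the pseudocount, filter, scaling, variance model, fold limit, a replicate block and each library left out.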

Additional observations from a re-analysis of the deposited data

How the results depend on the processing

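Without moderation of the variances 684 genes were called (438 higher, 246 lower), Acan kept its log2 fold change of 4.43 with an adjusted p of 0.10, 1 member was called higher, and the lists gave 1 osteoblast, 2 cartilage and 1 tendon gene called higher and 0 osteocyte and mineralization genes called lower. With no limit on the fold, 947 genes were called lower and 3 osteocyte and mineralization genes higher. Sp7 passed the threshold with a pseudocount of 5 reads (3.37, adjusted p = 0.044 by limma) and, at 4.67, with a filter of 10 reads in 1 or more libraries or no filter (adjusted p = 0.0497 by limma for both), when 2 osteocyte and mineralization genes were called higher. Quantile normalization moved the median of all genes by -0.136.

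With each library left out, the genes called ranged from 426 to 2480 (290 to 1704 higher, 136 to 776 lower), lowest without Nelfb-/- replicate 3 and highest without CTL replicate 3. The log2 fold change ranged from -0.39 to 0.030 for Runx2 (positive without CTL replicate 2, at 0.0021), from 3.79 to 5.92 for Sp7, from -0.016 to 0.96 for Alpl, from 1.37 to 1.54 for Spp1, from 1.85 to 3.74 for Sox9, from 3.83 to 5.33 for Acan and from 0.98 to 2.23 for Comp. Members called higher ranged from 0 to 5, osteoblast genes from 1 to 5, cartilage genes from 1 to 9 (1 to 3 lower), tendon genes from 1 to 3, and osteocyte and mineralization genes called lower from 0 to 1. The cause of these changes was not tested.

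The replicate numbers were not taken to pair the samples, since the deviations of same-numbered libraries correlated at 0.515, -0.395 and 0.518. With the replicate block, Sp7 (4.67) had an adjusted p of 0.025 by limma and 4 osteoblast genes were called higher. CTL replicate 3 deviated with Nelfb-/- replicates 2 and 3 (0.536 and 0.518) and against replicate 1 (-0.631), with which CTL replicates 1 and 2 deviated (0.515 and 0.48).

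Low read numbers limit Sp7, Acan and Comp (0 to 44 reads in the CTL libraries) and also Hapln1 and Matn4 (2 to 5 reads).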
